A study of Schizosaccharomyces pombe with 6 samples.

Results

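The genes described here encode the enzymes of glycolysis in the fission yeast *Schizosaccharomyces pombe*. They are the 10 of 6986 IDs in the count table whose common names are *pgi1*, *pfk1*, *fba1*, *tpi1*, *tdh1*, *gpd3*, *pgk1*, *gpm1*, *eno101* and *pyk1*, a set defined by name and with no threshold on a measured value, though proposed with earlier results of these data known. Poly(A)+ RNA was sequenced from 3 biological replicates of an *spx1*Δ strain, in which the *spx1* open reading frame was replaced with a *kanMX* cassette, and from 3 biological replicates of the wild-type strain. Both strains are labelled h+, and all cultures were grown to log phase in YES medium, a rich medium with glucose, at 30°C. The labels give a single strain number for each genotype, so that any other difference between the strains cannot be told apart from the deletion of *spx1*, and p-values measure the spread between cultures of these 2 strains. The Spx1 protein has a RING finger and an SPX domain, a type of domain known to bind inositol pyrophosphates.

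Glycolysis splits glucose into pyruvate in the cytosol and yields ATP and NADH on the way. The first enzymes rearrange and phosphorylate the sugar and cleave it into a pair of triose phosphates, and the later ones oxidize the triose and pass its phosphates to ADP. Fission yeast growing on glucose ferments much of the pyruvate to ethanol, and its glycolytic mRNAs are among the most abundant in the cell.

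The libraries held 20929960 to 24696086 counts in *spx1*Δ cells and 11539278 to 15282140 in wild-type cells, so that depth goes with strain. *spx1* itself had normalized counts of 2062 to 2185 in *spx1*Δ libraries and 5153 to 5436 in wild-type libraries. Counts that remain in the deletion strain cannot be placed within the gene, since the table gives only its total. *spx1*Δ replicate 1 stood apart: the chi-square per gene between its counts and those of replicates 2 and 3 was 172 and 103, against 13.4 between replicates 2 and 3 and 5.58 to 7.95 among wild-type replicates. For this reason each *spx1*Δ library is shown by itself. A chi-square on counts also rises with depth, so its wild-type values are not directly comparable with those of the deeper *spx1*Δ libraries. Counts were normalized to a common library size by TMM scaling, and a log2 fold change is given ± its standard error. A normalized count serves to compare 1 gene between libraries and not different genes, since it is not divided by gene length. The fewest counts of any glycolytic gene in any library were 1578, for *gpd3* in *spx1*Δ replicate 2, where the relative counting error is 2.52%, and for the other 9 genes it was at most 0.874%. The differences between strains given here for the glycolytic genes are larger than this counting error.

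All 10 glycolytic genes had a negative log2 fold change of *spx1*Δ over wild type, from -1.67 for *pgk1* to -0.34 for *pfk1*. Of the 10, 5 fell at an adjusted p of at most 0.05 (edgeR's quasi-likelihood test with Benjamini-Hochberg adjustment over the 6127 genes tested) and 0 rose. With DESeq2 or limma-voom, 0 of the 10 rose as well. The 5 were *pgi1*, *tpi1*, *pgk1*, *gpm1* and *pyk1*. For comparison, 25.4% of all genes tested were lower and 27.6% higher at this threshold. The median log2 fold change was -0.98 over the 10 genes and -0.01 over all genes tested. At the thresholds of the study, which add a 2-fold change and, for the higher strain, an average normalized count of 100 or more, *pgk1* and *gpm1* were lower, against 2.25% of all genes. For 8 of the 10 genes every *spx1*Δ library lay below every wild-type library, as it did for 33.5% of all genes tested. Protein-coding genes with an average normalized count no lower than 1000 are closer to the 10 in kind. Of these 3278 genes, 1269 had every *spx1*Δ library below every wild-type library. At an adjusted p of at most 0.05, 963 of them were lower and 719 higher, and their median log2 fold change was -0.07. The 2 genes whose libraries overlapped between strains were *pfk1* and *fba1*. A lower count per cell and fewer cells with the mRNA cannot be told apart in such bulk RNA.

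**Figure D1:**
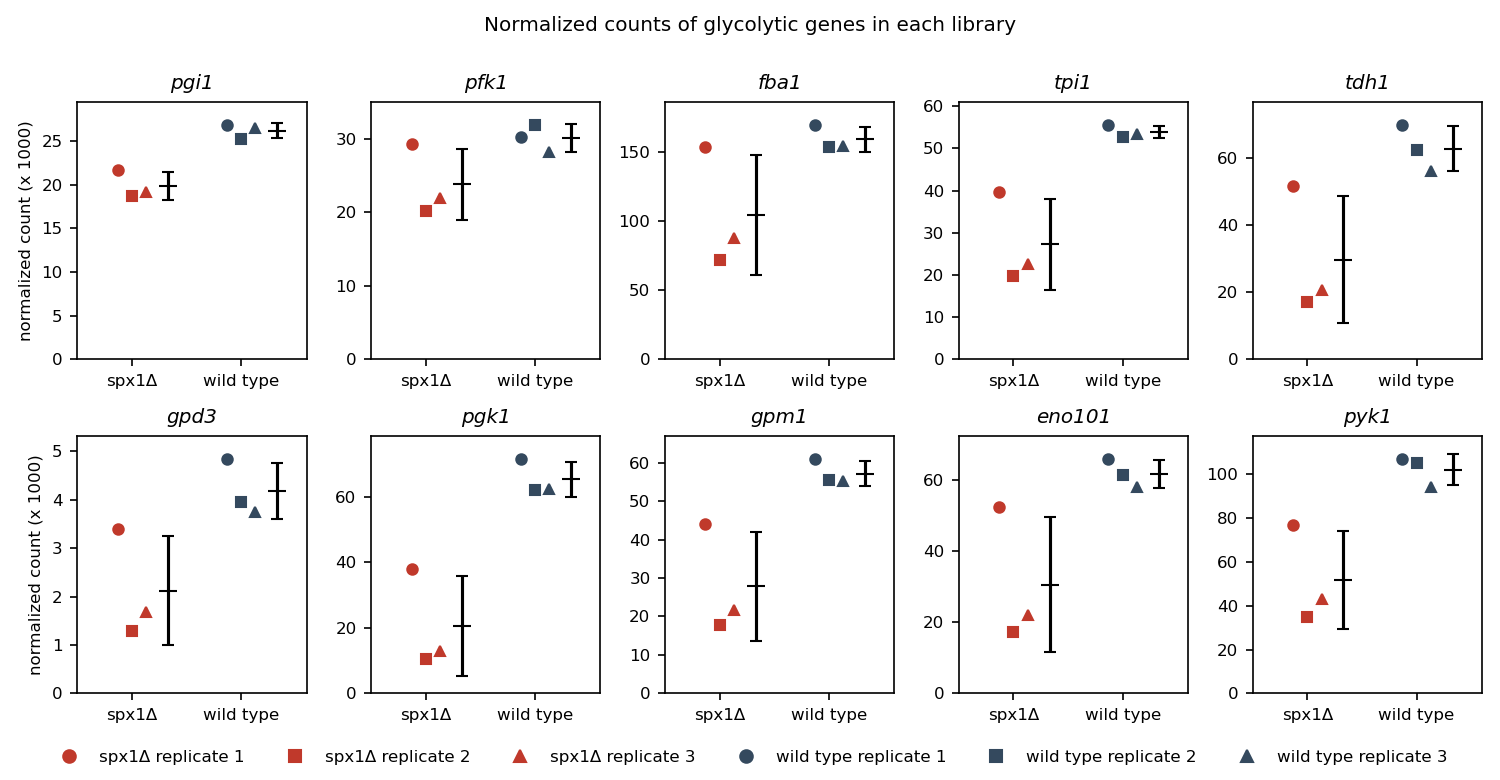
Normalized counts (in units of 1000, axis from 0) of the 10 glycolytic genes in each *spx1*Δ library (red, left) and each wild-type library (blue, right); symbols mark the replicate, and the black bars give mean ± SD of the 3 libraries. *spx1*Δ replicate 1 is the highest of its strain for all 10 genes and replicate 2 the lowest, and only for *pfk1* and *fba1* does replicate 1 reach the wild-type libraries.

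The genes for the enzymes that act on the hexose phosphates had the smallest differences. Glucose-6-phosphate isomerase, which turns glucose 6-phosphate into fructose 6-phosphate, is encoded by *pgi1* (SPBC1604.05). Its normalized counts were 21708, 18751 and 19167 in *spx1*Δ replicates 1, 2 and 3, against 26827, 25172 and 26466 in wild-type replicates 1, 2 and 3. All 3 *spx1*Δ libraries lay below the wild-type ones and close to each other, including replicate 1. The log2 fold change of *pgi1* was -0.40 ± 0.08 (adjusted p = 0.00842), which is 1.32-fold lower by the means. It was the one gene of the 10 that passed the test whichever library was left out. 6-Phosphofructokinase, which commits the sugar to glycolysis with a second phosphate, is encoded by *pfk1* (SPBC16H5.02). Normalized counts of *pfk1* were 29279, 20242 and 21888 in *spx1*Δ replicates 1, 2 and 3, against 30242, 31893 and 28159.7 in wild-type replicates 1, 2 and 3. Replicate 1 lay within the wild-type range, and replicates 2 and 3 were below it. The log2 fold change of -0.34 ± 0.14 (adjusted p = 0.0847) did not pass.

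Aldolase (*fba1*, SPBC19C2.07) cleaves fructose bisphosphate into the trioses. It had normalized counts of 153668, 71824 and 87957 in *spx1*Δ replicates 1, 2 and 3, against 169495, 153259.6 and 154327 in wild-type replicates 1, 2 and 3. Replicate 1 fell between the wild-type values, at 96.6% of the wild-type mean, while replicates 2 and 3 were at 45.2% and 55.3%. With a log2 fold change of -0.61 ± 0.27 (adjusted p = 0.0981), *fba1* had the highest adjusted p of the 10 genes. Triosephosphate isomerase (*tpi1*, SPCC24B10.21) interconverts both trioses. Its normalized counts were 39530.4, 19718 and 22503 in *spx1*Δ replicates 1, 2 and 3, against 55528, 52661 and 53477 in wild-type replicates 1, 2 and 3. Here replicate 1 too was below every wild-type library, and the wild-type libraries differed by a factor of only 1.05. *tpi1* had a log2 fold change of -0.98 ± 0.25 (adjusted p = 0.0199).

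The genes of the payoff phase, in which the triose is oxidized and ATP is made, were lower in every *spx1*Δ library than in any wild-type library. Glyceraldehyde-3-phosphate dehydrogenase oxidizes the triose and makes NADH, and a pair of genes encodes it. Reads shared by *tdh1* (SPBC32F12.11) and *gpd3* (SPBC354.12) could have been split or dropped in the counting, so that the values of these paralogs are uncertain to that extent. *tdh1* had normalized counts of 51737, 17016 and 20564 in *spx1*Δ replicates 1, 2 and 3, against 69945, 62518 and 56273 in wild-type replicates 1, 2 and 3. *gpd3* had 3394, 1279.8 and 1684 in *spx1*Δ replicates 1, 2 and 3, against 4833, 3950.3 and 3746 in wild-type replicates 1, 2 and 3. *spx1*Δ replicates 1, 2 and 3 were at 82.2%, 27.05% and 32.7% of the wild-type mean for *tdh1* and at 81.3%, 30.6% and 40.3% for *gpd3*. The ratio of *tdh1* to *gpd3* counts was 15.2, 13.3 and 12.2 in *spx1*Δ replicates 1, 2 and 3 and 14.5, 15.8 and 15.02 in the wild-type replicates, and the ranges of the strains overlapped. Neither gene passed the test, with log2 fold changes of -1.08 ± 0.41 (adjusted p = 0.0641) for *tdh1* and -0.98 ± 0.35 (adjusted p = 0.053) for *gpd3*.

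Phosphoglycerate kinase (*pgk1*, SPBC14F5.04c), which makes the first ATP of the pathway, had the largest change of the 10. Its normalized counts were 38043, 10608 and 13056 in *spx1*Δ replicates 1, 2 and 3, against 71463, 62140.2 and 62385 in wild-type replicates 1, 2 and 3. Replicates 2 and 3 held 16.2% and 19.98% of the wild-type mean, and replicate 1, at 58.2%, was also further below it than for any other glycolytic gene. The log2 fold change was -1.67 ± 0.48 (adjusted p = 0.0273). The change of *pgk1* was larger than that of *pgi1* in each *spx1*Δ library: the ratio of *pgk1* to *pgi1* normalized counts was 1.75, 0.566 and 0.681 in *spx1*Δ replicates 1, 2 and 3 and 2.66, 2.47 and 2.36 in wild-type replicates 1, 2 and 3. That ratio did not overlap between strains. The pair joins the gene with the largest change and one with among the smallest, so the separation largely restates the changes of the single genes. It was not tested, and with 3 libraries in each strain no exact permutation test of the ratio could go below a two-sided p of 0.1.

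Phosphoglycerate mutase (*gpm1*, SPAC26F1.06) moves the remaining phosphate within phosphoglycerate. It had normalized counts of 44017, 17755 and 21713 in *spx1*Δ replicates 1, 2 and 3, against 60881, 55439.5 and 55110.3 in wild-type replicates 1, 2 and 3. Its log2 fold change was -1.04 ± 0.33 (adjusted p = 0.0365). Enolase (*eno101*, SPBC1815.01) removes water to form phosphoenolpyruvate. Counts of *eno101* were 52344, 17372 and 21956 in *spx1*Δ replicates 1, 2 and 3, against 65744, 61304 and 57829 in wild-type replicates 1, 2 and 3, after normalization. Replicate 1 was at 84.9% of the wild-type mean and replicates 2 and 3 at 28.2% and 35.6%, and the log2 fold change of -1.01 ± 0.40 (adjusted p = 0.069) did not pass. Pyruvate kinase (*pyk1*, SPAC4H3.10c) takes the last phosphate to make ATP and pyruvate. For *pyk1*, normalized counts were 76878, 34989.9 and 43289 in *spx1*Δ replicates 1, 2 and 3, against 106838, 105173 and 93973 in wild-type replicates 1, 2 and 3. On the log2 scale replicate 1 was closer to the wild-type mean than to replicates 2 and 3, as for the other genes of this phase. The log2 fold change of *pyk1* was -0.98 ± 0.28 (adjusted p = 0.0276).

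Along the pathway, the *spx1*Δ libraries kept 1 order. Replicate 1 was the highest and replicate 2 the lowest for all 10 genes. Measured on the log2 scale against the mean of wild type, the 10 genes had a median of -0.29, -1.61 and -1.29 in *spx1*Δ replicates 1, 2 and 3, against -0.01, -0.02 and -0.01 over all genes tested. It was -0.16, -0.86 and -0.66 over the 4 genes from *pgi1* to *tpi1* and -0.34, -1.77 and -1.44 over the 6 genes from *tdh1* to *pyk1*. These medians were lower for the later genes in each library, while single genes did not keep to this: in replicate 1 *tpi1* was further below wild type than 5 of the 6 later genes. No test was made between the 2 sets of genes. Replicate 1 was the closest to the wild-type mean for all 10 genes, and among all 6127 genes tested it was the closest for 4546. How far it was displaced differed between genes. Its log2 difference was 57.9% of the mean difference of replicates 2 and 3 for *pgi1*, 32.99% for *tpi1*, 31.5% for *pgk1*, 7.71% for *pfk1* and 4.94% for *fba1*.

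**Figure D2:**
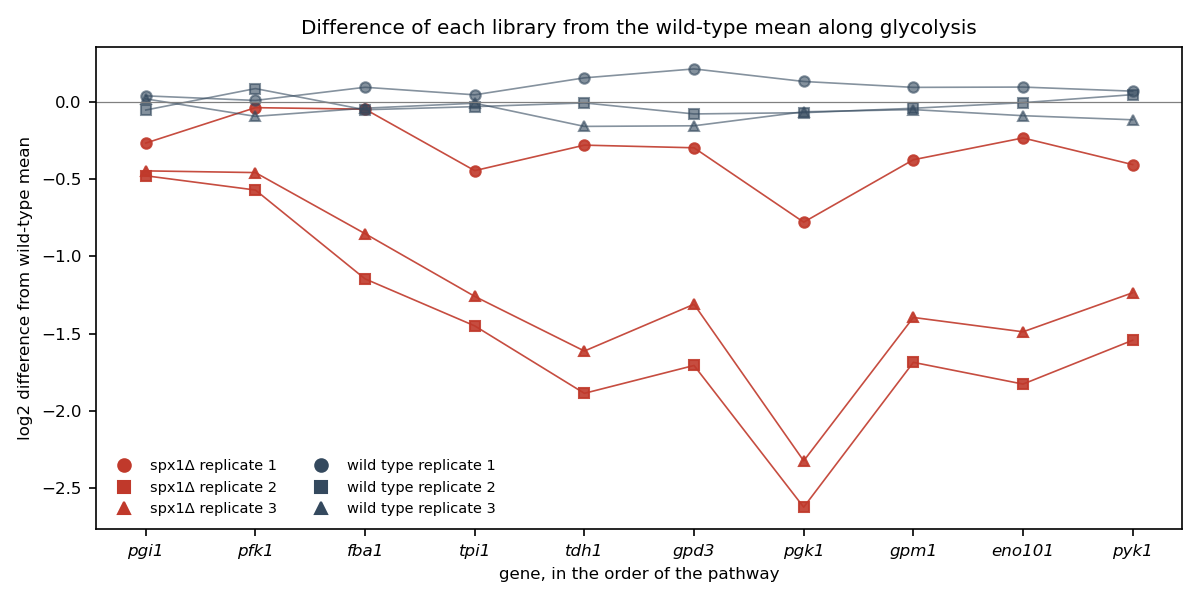
Log2 difference of each library from the wild-type mean (y axis) for the 10 genes in the order of the pathway (x axis), with *spx1*Δ libraries in red and wild-type libraries in blue and a symbol for each replicate. *spx1*Δ replicates 2 and 3 run side by side and reach -2.62 and -2.32 at *pgk1*, replicate 1 stays between -0.78 and -0.04, and wild-type libraries stay within -0.16 to 0.21.

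The spread between replicates was therefore larger in the deletion strain for every gene of the 10. The SD of the log2 normalized count was 0.638 in *spx1*Δ cells and 0.0914 in wild-type cells as a median over the 10 genes, against 0.121 in *spx1*Δ cells and 0.0509 in wild-type cells over the 3278 protein-coding genes with an average normalized count no lower than 1000. In *spx1*Δ cells *pgk1* had an SD of 0.989, above that of 99.6% of those genes or equal to it, and *pgi1* one of 0.114, at 47.4%. The other 8 lay between 85.5% and 99.3%. In wild-type cells *gpd3* and *tdh1* varied most, by factors of 1.29 and 1.24 between the highest and the lowest library.

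The number of calls changed with the libraries used. Without *spx1*Δ replicate 1, all 10 genes fell, against 38.5% of all genes tested. In that fit the log2 fold change was -2.47 for *pgk1* (adjusted p = 4.27e-08), -0.997 for *fba1* (adjusted p = 7.15e-06) and -0.52 for *pfk1* (adjusted p = 7.21e-05). Without *spx1*Δ replicate 2, 4 fell, against 17.5% of all genes, namely *pgi1*, *tpi1*, *pgk1* and *pyk1*. When *spx1*Δ replicate 3 or any 1 wild-type replicate was left out, only *pgi1* fell, against 9.08% of all genes without *spx1*Δ replicate 3 and 10.5%, 12.3% and 10.2% without wild-type replicates 1, 2 and 3. In those 4 fits *pgk1* had log2 fold changes of -1.42, -1.60, -1.71 and -1.70 and adjusted p of 0.0905, 0.0798, 0.0715 and 0.0736. The direction was negative for all 10 genes in every one of these fits. With all libraries, DESeq2 called 8 of the 10 lower, against 27.4% of all genes, and limma-voom also 8, against 25% of all genes.

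**Figure D3:**
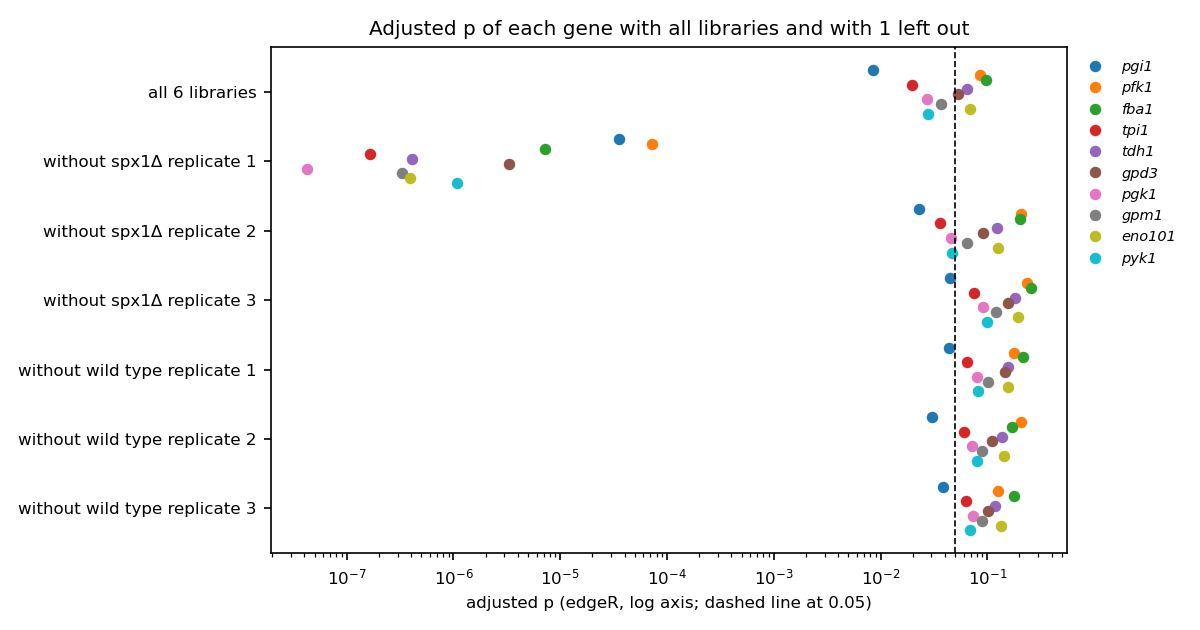
Adjusted p of the 10 glycolytic genes (log axis, colored by gene, dashed line at 0.05) from edgeR's test with all 6 libraries and with 1 library left out (rows). Without *spx1*Δ replicate 1 all 10 genes lie left of the line, and in the rows for *spx1*Δ replicate 3 and the wild-type replicates only *pgi1* does.

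Together the 10 genes took 2.79%, 1.31% and 1.54% of all counts in *spx1*Δ replicates 1, 2 and 3, against 3.58%, 3.26% and 3.25% in wild-type replicates 1, 2 and 3. Every *spx1*Δ library was below every wild-type library. The mean share was 1.88% ± 0.800 in *spx1*Δ cells and 3.37% ± 0.189 in wild-type cells (SD, n = 3 each). The make-up of this pool of glycolytic counts differed as well. *fba1* made up 30.1%, 31.3% and 32.1% of it in *spx1*Δ replicates 1, 2 and 3, against 25.6%, 24.98% and 26.1% in the wild-type replicates. *pgk1* made up 7.45%, 4.62% and 4.77% in *spx1*Δ replicates 1, 2 and 3, against 10.8%, 10.1% and 10.5% in the wild-type replicates. These shares are of counts, so they also reflect gene length, which is the same in all libraries. Within the pool the part of *fba1* was larger and that of *pgk1* smaller in each *spx1*Δ library, replicate 1 included. The part of *pyk1* was smaller in *spx1*Δ cells by a narrow margin, at 15.1%, 15.2% and 15.8% in *spx1*Δ cells and 16.1%, 17.1% and 15.9% in wild-type cells.

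Neighboring steps of sugar metabolism did not move as a block. Of 36 other genes in 5 lists, 12 fell, 3 rose and 21 did not pass, beside the 25.4% lower and 27.6% higher among all genes. Without *spx1*Δ replicate 1, 16 fell and 6 rose, against 38.5% lower and 36.8% higher among all genes. Without *spx1*Δ replicate 2, 8 fell and 3 rose, against 17.5% and 21.6%. When any of the remaining libraries was left out 8 fell and 1 rose, against 9.08% to 12.3% lower among all genes and, higher, 15.4% without *spx1*Δ replicate 3 and 15%, 16.5% and 15.3% without wild-type replicates 1, 2 and 3. With all libraries the median log2 fold change of the 36 genes was -0.02. The first list holds 13 genes for hexose phosphorylation, hexose phosphate regulation, other isozymes and the gluconeogenic bypass, of which 5 fell and 1 rose, with a median of 0.03. Hexokinases phosphorylate glucose at the entry of the pathway. *hxk2* had normalized counts of 10475, 3844 and 4887 in the *spx1*Δ libraries and 14185, 13310.0 and 13642 in the wild-type libraries, with the same order of *spx1*Δ libraries as the glycolytic genes and a log2 fold change of -1.10 ± 0.36 (adjusted p = 0.0393). *hxk1* had a log2 fold change of -0.45 ± 0.08 (adjusted p = 0.00658). A predicted phosphoglucomutase gene, SPBC32F12.10, whose enzyme links glucose phosphates to storage sugars, had -0.56 ± 0.06 (adjusted p = 0.0024). SPAC5H10.03 and SPCC1620.13, annotated as a family shared by phosphoglycerate mutase and 6-phosphofructo-2-kinase, had -1.23 ± 0.23 (adjusted p = 0.00809) and -1.26 ± 0.17 (adjusted p = 0.00389).

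The gene that rose was *fbp1*, for fructose-1,6-bisphosphatase, which runs the step of phosphofructokinase backward in gluconeogenesis. Its normalized counts were 779, 2094 and 1723 in the *spx1*Δ libraries and 564, 703 and 724 in the wild-type libraries. Replicate 1 was the closest to wild type here as well, while all *spx1*Δ libraries lay above the wild-type ones. *fbp1* had a log2 fold change of 1.21 ± 0.35 (adjusted p = 0.0278). Enolase has a second gene, *eno102*, with normalized counts of 265, 127 and 197 in the *spx1*Δ libraries and 112, 142 and 149 in the wild-type libraries. It did not pass, at a log2 fold change of 0.55 ± 0.28 (adjusted p = 0.139), and reads shared with *eno101* could have been split between both genes.

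In the fermentation list of 6 genes, 2 fell, 1 rose and 3 did not pass, with a median log2 fold change of -0.75. Pyruvate decarboxylase removes carbon dioxide from pyruvate, and its gene *pdc101* had normalized counts of 82635, 28729 and 36977 in the *spx1*Δ libraries and 98352, 105644 and 89315 in the wild-type libraries. Alcohol dehydrogenase reduces the acetaldehyde to ethanol, and *adh1* had 86502, 38028 and 44114 in the *spx1*Δ libraries and 98928, 95831 and 84598 in the wild-type libraries. Both showed the library order of the glycolytic genes and did not pass, with log2 fold changes of -0.98 ± 0.38 (adjusted p = 0.0655) for *pdc101* and -0.73 ± 0.30 (adjusted p = 0.0812) for *adh1*. The genes that passed had few counts: *pdc201*, *pdc102* and *pdc202* had wild-type means of 105, 228 and 202 and log2 fold changes of -0.76 ± 0.25 (adjusted p = 0.0383), -5.25 ± 0.31 (adjusted p = 5.97e-04) and 1.08 ± 0.34 (adjusted p = 0.0353). In the gene order of the reference, *pdc102* is near one end of chromosome I. It and the 7 other tested protein-coding genes that lie last there all fell, a region picked after its values were seen. The 7 others had log2 fold changes of -7.73 to -2.41. Whether the region is present in the *spx1*Δ strain was not tested. Without *pdc102*, 1 of 5 fermentation genes fell and 1 rose, with a median of -0.73, and 11 of 35 genes of all lists fell.

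Of 6 genes for the pentose phosphate pathway, which turns glucose 6-phosphate into NADPH and pentoses, 1 fell and 5 did not pass. The median log2 fold change was -0.02. The gene that fell was SPCC16C4.10, for 6-phosphogluconolactonase, at -0.31 ± 0.06 (adjusted p = 0.00826). *zwf1*, for the glucose-6-phosphate dehydrogenase at the entry, had 0.11 ± 0.07 (adjusted p = 0.199), and *tal1*, for transaldolase, 0.01 ± 0.07 (adjusted p = 0.874). Of 6 genes for the glycerol and trehalose branches, 3 fell, with a median of -0.34. Glycerol-3-phosphate dehydrogenase draws triose phosphate away to glycerol. Its gene *gpd1* had normalized counts of 9346, 6931 and 7437 in the *spx1*Δ libraries and 13850.3, 14949 and 14795 in the wild-type libraries and a log2 fold change of -0.88 ± 0.12 (adjusted p = 0.00381), while *gpd2* had 0.19 ± 0.10 (adjusted p = 0.142). Trehalose phosphate synthase (*tps1*) had -1.24 ± 0.20 (adjusted p = 0.00555). In the pyruvate dehydrogenase complex, which carries pyruvate into mitochondrial metabolism, *dld1* fell and *pdx1* rose among 5 genes, at -0.28 ± 0.09 (adjusted p = 0.0374) and 0.35 ± 0.06 (adjusted p = 0.0074), and the median was 0.03.

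**Figure D4:**
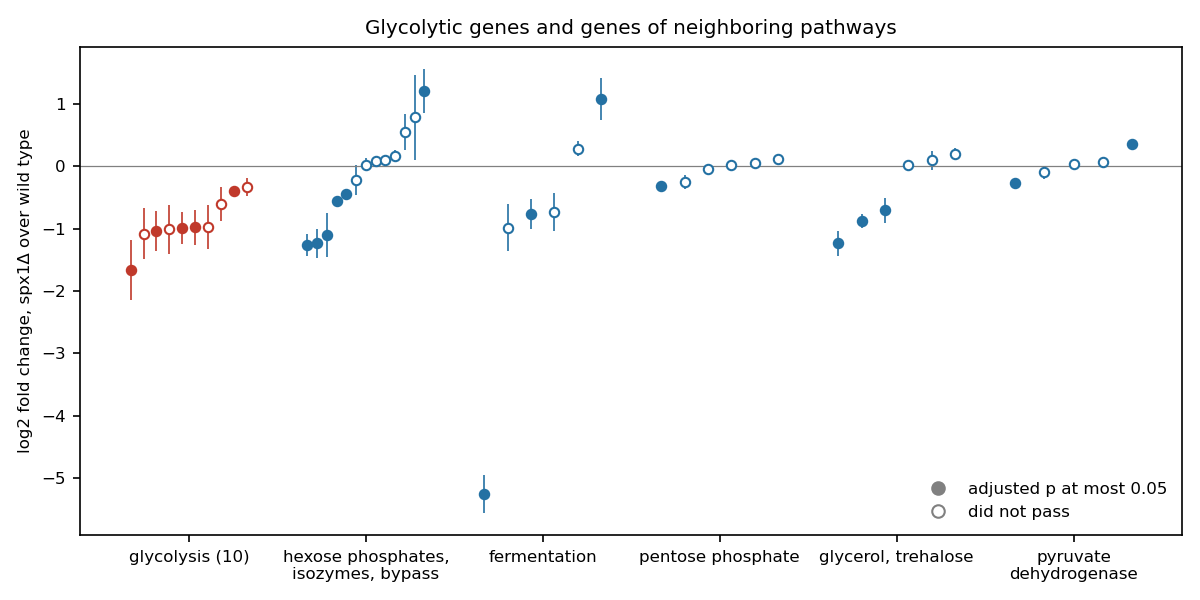
Log2 fold change of *spx1*Δ over wild type with its standard error (y axis) for the 10 glycolytic genes (red) and for 36 genes of 5 neighboring lists (blue), sorted within each list; filled points passed at an adjusted p of at most 0.05 and open ones did not. The glycolytic genes all lie below 0, the pentose phosphate genes lie between -0.31 and 0.11, and the lowest point is *pdc102*.

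Other cells or states in the cultures were looked at through marker genes. The 2 *mat1-P* genes of h+ cells were not matched by name, and *map1* and *map3*, 2 genes of P cells, did not pass, at log2 fold changes of 0.24 ± 0.12 (adjusted p = 0.133) and 0.06 ± 0.14 (adjusted p = 0.732). P-factor (*map2*) was higher, at 5.01 ± 0.66 (adjusted p = 0.00379). *mat1-Mc*, which defines M cells, had 0 counts in every library. How reads that match several places were counted is not known here, so this 0 alone cannot show that such cells were absent. Of the 5 M-cell genes, 2 of 3 tested rose, beside 27.6% higher among all genes tested, and so few genes do not stand for a cell type. *mfm3*, which rose, had only 19, 12 and 8 counts in wild-type replicates 1, 2 and 3. The summed normalized count of the M-cell list was 1022 to 2947 in *spx1*Δ libraries and 627 to 719 in wild-type libraries. Most of this sum came from *mam2* in every library. Of 13 genes for stress or glucose shortage, 4 fell, 2 rose and 7 did not pass, beside the 25.4% lower and 27.6% higher among all genes, and their sum was 21258 to 25865 in *spx1*Δ and 32303 to 36727 in wild-type libraries. *gpd1* was the largest part of this sum, with means of 7905 in *spx1*Δ and 14531 in wild-type cells, so the sum does not stand for the list as a whole. The 2 that rose were *fbp1* and the glucose transporter gene *ght1*, at 3.20 ± 0.51 (adjusted p = 0.00532), while *tps1*, *gpd1*, *gpx1* and *ctt1* fell. 4 of these 13 genes also stand in the lists above. The part of mating or nutrient state in the change of the glycolytic genes was not tested.

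The 10 genes do not form a cluster. They lie apart from each other in the reference annotation, 2 on chromosome I, 7 on chromosome II and 1 on chromosome III. No antisense RNA in the count table carries the common name of any of them. Some antisense RNAs are named by systematic ID instead, as for *pdc202* (SPAC13A11.06-antisense-1). Such names were not searched for the 10 genes, so whether they have antisense RNAs was not settled. Of the 20 tested protein-coding genes that flank them, 7 fell, 4 rose and 9 did not pass, beside 30.2% lower and 21.2% higher among all protein-coding genes tested, with a median log2 fold change of -0.26. Beside *pgk1*, *sam1*, for S-adenosylmethionine synthetase, had -0.88 ± 0.13 (adjusted p = 0.00466), and *kap123*, for a nuclear import receptor on the other side, had 0.19 ± 0.08 (adjusted p = 0.0728). Next to *tpi1*, *pog1*, for the mitochondrial DNA polymerase gamma, had 2.05 ± 0.35 (adjusted p = 0.00605), opposite in sign to *tpi1*. *tdh1* lies beside the phosphoglucomutase gene SPBC32F12.10 named above. *def1*, next to *gpd3*, had 0.23 ± 0.06 (adjusted p = 0.0219) and *noc4*, next to *pgi1*, 0.47 ± 0.05 (adjusted p = 0.00234).

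The mean profile of the 10 genes over the 6 libraries was shared by many other genes. The Pearson coefficient with the mean of the other 9 was 0.946 for *pgi1* and at least 0.971 for each of the other 9 genes. Among 3268 other protein-coding genes with an average normalized count no lower than 1000, 680 had a coefficient over 0.95. The 5 most alike were *hsp10*, *amt1*, *nup44*, *hxk2* and *cms1*, all with 0.998 to 0.999. They encode a mitochondrial chaperonin, an ammonium transporter, a nucleoporin, hexokinase 2 and a factor of ribosome assembly, and all 5 fell. The points share their libraries and rest mainly on the difference between the strains and the place of *spx1*Δ replicate 1, so these coefficients are a description and not a test.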

How the data were processed

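RNA-seq of poly(A)+ RNA from 3 *spx1*Δ and 3 wild-type cultures was used. The authors mapped paired reads to build ASM294v2 with HISAT2 2.1.0, used SAMtools and counted reads over exons with HTSeq 0.10.0, with a strand setting that the sources used here do not state. The deposited table holds the counts the authors obtained per gene, unscaled. Of the deposited DESeq2 table only names, products and gene types were read; its means, fold changes and p-values, which are the authors' comparison, were not used. IDs numbered 6986 after 1 duplicate was dropped, and 6833 matched the RefSeq table of ASM294v3, used only for chromosomes and neighbors, since the builds differ. For that reason no sequence, coordinate or gene length is given. Counts summed to 11539278 to 24696086 per library, at which counting error is small for the glycolytic genes. It is not small for genes with few counts, such as *pdc102*, with 4, 9 and 9 in *spx1*Δ replicates 1, 2 and 3.

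Counts were filtered with filterByExpr, scaled by TMM and tested with glmQLFit and glmQLFTest of edgeR 4.0.16 in R 4.3.3, with strain as the only term and Benjamini-Hochberg adjustment over 6127 genes. Standard errors are the absolute log2 fold change over the square root of F. Logarithms of normalized counts for spreads and profiles used an offset of 0.5. The genes named are *spx1*, the 10 members, all genes of the pathway and marker lists, flanking genes and the 5 most alike in profile; not all are printed. The members and lists were chosen with earlier results of these data known. Alternatives were other scalings and filters, DESeq2 1.42.0, limma-voom (limma 3.58.1), a replicate block and leaving out each library. Same-numbered libraries of the strains were not taken as pairs, since nothing in the labels says that a number marks a shared batch and the deviations of same-numbered libraries from their strain means correlated by at most 0.10.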

Additional observations from a re-analysis of the deposited data

How the results depend on the processing

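All 140 log2 fold changes of the 10 genes under 14 alternatives were negative, from -2.47 to -0.23. The 5 genes lower in the report were the same 5 with RLE size factors, with library size only, with only protein-coding genes, with no filter on low counts and, in an alternative chosen after seeing the data, with scaling factors computed without the 10 genes. With DESeq2 8 fell, with limma-voom 8 and with the replicate block 9 (22.8% of all genes). How many of the 10 were lower at the 2-fold threshold depended on the setting, from 0 to 7 over the alternatives. The share of all genes at that threshold was computed only with the main fit, so these numbers have no such share to stand against. The block, whose numbers are not known to pair the libraries, left *pfk1* out (adjusted p = 0.076). Correlations of deviations were 0.10, 0.03 and 0.05 for libraries numbered 1, 2 and 3. With 1 library left out, 1 to 10 of the glycolytic genes fell. Of the 36 genes in neighboring lists, 6 rose with only protein-coding genes and 1 with limma-voom, instead of 3, and 1 to 6 rose with 1 library left out. The cause of these differences was not tested. The adjusted p of *pgi1* was 5.95e-06 to 0.0448 over all 14 alternatives. 0 of the 10 genes rose in any of them, with edgeR, DESeq2 or limma-voom. As shares of the library total, the log2 ratio of the summed level of the 10 genes was -0.84, and -0.88 after TMM scaling. Counting error is small for these genes, and the part of depth, which goes with strain, was not tested.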

Other observations

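The pentose phosphate list was matched by product text and so missed *gnd1*, annotated as a decarboxylating phosphogluconate dehydrogenase, which makes NADPH in the oxidative branch. It was picked after its values were seen. *gnd1* had normalized counts of 17857, 10276 and 11581 in the *spx1*Δ libraries and 21260.0, 21549.8 and 20320.2 in the wild-type libraries and a log2 fold change of -0.67 ± 0.20 (adjusted p = 0.0313) from edgeR. Its *spx1*Δ libraries stood in the same order as those of the glycolytic genes and all lay below wild type.

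*ght3*, for a gluconate transporter, set *spx1*Δ replicate 1 apart in the other direction. Its normalized counts were 121, 31.6 and 32.3 in the *spx1*Δ libraries and 37.5, 35.9 and 36.3 in the wild-type libraries. Replicate 1 alone was above the wild-type libraries, and the gene did not pass, with a log2 fold change of 0.76 ± 0.58 (adjusted p = 0.29). Before normalization its counts were only 163, 39 and 38 in *spx1*Δ replicates 1, 2 and 3. They were 31, 22 and 29 in wild-type replicates 1, 2 and 3. With so few counts, the slightly lower normalized values of *spx1*Δ replicates 2 and 3 are not read as a difference.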
